A study of Homo sapiens with 12 samples.

Results

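The integrated stress response and the serine synthesis enzymes it controls were followed as a set of 31 genes in NCI-H295R cells. The members were taken by name: each of the 31 symbols matched 1 row, by its Ensembl identifier, in a count table of 60617 rows. NCI-H295R cells are an established line of human adrenocortical carcinoma that secretes steroids, and polyadenylated RNA was sequenced from 4 groups of 3 replicate cultures. EZH2i cultures received EPZ-6438 at 62 µM for 96 h, an inhibitor of EZH2, the methyltransferase of the Polycomb repressive complex. CBPi cultures received PRI-724 at 26 µM for 96 h, a compound that blocks the interaction of the coactivator CBP with β-catenin. The submitters describe both doses as IC-50 doses. FSK cultures received the vehicle for 48 h and then forskolin, an activator of adenylyl cyclase, at 10 µM for 48 h, so the time in forskolin was shorter than the time in either inhibitor. Baseline cultures received DMSO, the vehicle of the other groups, for 96 h. All 12 libraries come from 1 cell line, and p-values measure the spread between its replicate cultures.

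In the integrated stress response, kinases such as PERK phosphorylate the translation factor eIF2, which lowers protein synthesis in general while the transcription factor ATF4 is translated more. ATF4, often paired with C/EBP proteins, activates genes for amino acid synthesis, amino acid import, tRNA charging and feedback on the pathway. Among its known targets are PHGDH, PSAT1 and PSPH, which make serine from a glycolytic intermediate, and SHMT2 and MTHFD2, which pass the carbon of serine to mitochondrial folate. Because ATF4 itself is controlled mostly at translation, its mRNA is only a partial readout of the pathway.

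The letters that C/EBP and ATF factors recognise were looked for in the promoters of the members, since that composite element is the usual route by which ATF4 reaches its targets. Promoters of RefSeq, build GRCh38.p14, were matched by symbol for 24 of the 31 members, with 38 windows, and the 250 bases before the annotated start were searched on both strands. TGATGNAA stood in 5 of the 24 members and 5 of their 38 windows, against 3.89% of 27305 genes and 3.14% of 35116 windows. TGACGTCA, the cAMP response element, stood in 1 of the 24, PPP1R15A, against 2.03% of genes. No member held both motifs. The stretches around the matches are given 5′ to 3′ on the gene's strand, with the matched letters in capitals, because these are the members whose promoters carry either element and whose changes are described next. The match lay 191 bases before the RefSeq start of its window in ATF3, 68 in ASNS, 42 in CEBPG, 16 in JDP2 and, on the opposite strand, 209 in CHAC1. For the cAMP response element in PPP1R15A the distance was 58 bases. ATF3, ASNS and CEBPG had 2 windows and JDP2 3, with the match in 1 window each. By the GENCODE gene bounds, the stretches of ASNS, CEBPG, JDP2 and CHAC1 lie inside the gene. The ATF3 stretch is at chr1:212565171-212565268, that of CEBPG at chr19:33374026-33374112, of JDP2 at chr14:75427961-75428021, of CHAC1 at chr15:40953221-40953314 and of PPP1R15A at chr19:48872318-48872415, all on the plus strand. The ASNS stretch is at chr7:97872424-97872521 on the minus strand.
ATF3: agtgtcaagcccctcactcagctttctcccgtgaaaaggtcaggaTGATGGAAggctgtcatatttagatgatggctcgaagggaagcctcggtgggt
ASNS: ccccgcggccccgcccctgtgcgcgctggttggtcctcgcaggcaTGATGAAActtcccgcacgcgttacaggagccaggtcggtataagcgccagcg
CEBPG: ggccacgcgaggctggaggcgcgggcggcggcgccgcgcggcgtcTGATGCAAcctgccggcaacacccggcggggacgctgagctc
JDP2: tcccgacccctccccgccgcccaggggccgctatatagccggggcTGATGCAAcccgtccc
CHAC1: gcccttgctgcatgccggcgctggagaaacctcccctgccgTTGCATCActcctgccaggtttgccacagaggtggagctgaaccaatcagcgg
PPP1R15A: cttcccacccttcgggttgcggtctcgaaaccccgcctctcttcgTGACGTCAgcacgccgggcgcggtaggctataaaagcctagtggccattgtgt
A match describes letters in these windows and says nothing about binding.

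The libraries held 20.6 to 31.5 megacounts. The 31 members took 0.336% to 0.342% of all counts in EZH2i, 0.533% to 0.560% in CBPi, 0.377% to 0.384% in FSK and 0.219% to 0.229% in baseline. Levels are given in CPM, counts per megacount scaled by the trimmed mean of M values (TMM), and fold changes as log2 with their SE. All 31 members passed the filter on low counts, as did 20360 genes of the table. CBPi replicate 2 stood apart: its chi-square per degree of freedom against the other CBPi replicates was 14.5 and 13.3, where all other replicate pairs gave 2.71 to 7.34. Of the adrenocortical markers, NR5A1, STAR, CYP11A1 and 9 others were all detected, and their summed level was 1879 to 1918 CPM in EZH2i, 1634 to 1828 in CBPi, 9291 to 9496 in FSK and 3924 to 4112 in baseline. Of those 12, 1 rose and 11 fell in EZH2i, 0 rose and 11 fell in CBPi, and 9 rose and 2 fell in FSK. Among 18 markers of other cell types the sum was 40.8 to 42.1, 29.9 to 35.5, 41.1 to 42.0 and 48.7 to 49.6 CPM in the same groups, and PTPRC had 1 count in all 12 libraries together. Of the 8 that passed the filter, 1 rose and 3 fell in EZH2i, 2 rose and 2 fell in CBPi, and 5 rose and 2 fell in FSK. Of all genes tested, 29.5% rose and 28.3% fell in EZH2i, 29.8% and 29.0% in CBPi, and 25.5% and 25.1% in FSK. Among these 8, both EZH2i counts, both CBPi counts and the falls in FSK were near those shares. The sum covers opposite moves: LUM had 4.61 CPM in FSK and 0.0397 CPM in baseline, EPCAM 18.9 CPM in FSK and 11.4 CPM in baseline, and COL3A1 3.48 CPM in FSK and 15.7 CPM in baseline, and VWF and CD68 also rose in FSK, by a log2 of 3.19 and 2.67. The mitochondrial share of counts was 3.27% to 4.40% in EZH2i, 3.58% to 4.81% in CBPi, 2.64% to 3.22% in FSK and 2.37% to 3.22% in baseline. The part of these shifts in the results below was not tested, and in bulk RNA fewer cells of a kind and less RNA per cell cannot be told apart.

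Against baseline, most members were higher under each treatment. All tests were edgeR's quasi-likelihood F-tests, with p-values adjusted by the Benjamini-Hochberg method over all 20360 genes, and "passed" means an adjusted p under 0.05. In EZH2i 26 members rose, 3 fell and 2 did not pass, where 29.5% of all genes rose and 28.3% fell. In CBPi 27 rose and 4 fell, against 29.8% and 29.0% of all genes. In FSK 22 rose, 4 fell and 5 did not pass, against 25.5% and 25.1%. The median log2 fold change of the members was 0.87 in EZH2i, 1.59 in CBPi and 0.88 in FSK, and that of all genes tested 0.02, 0.01 and 0.01. Tested against a change of 1.5-fold, 17 members were higher and 1 lower in EZH2i, 24 and 0 in CBPi, and 20 and 1 in FSK. For all genes these shares were 6.62% and 4.79%, 6.09% and 6.14%, and 5.34% and 6.45%. Scaling by library size alone gave 4119 higher and 6257 lower genes for FSK against baseline, where TMM gave 5197 and 5102, and the members' counts there stayed within 1.5 times. The 4 members lower in FSK numbered 2 without baseline replicate 2, baseline replicate 3 or FSK replicate 2, and without CBPi replicate 2 the CBPi counts were 27 higher and 3 lower. The 3 comparisons share the baseline libraries.

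**Figure D1:**
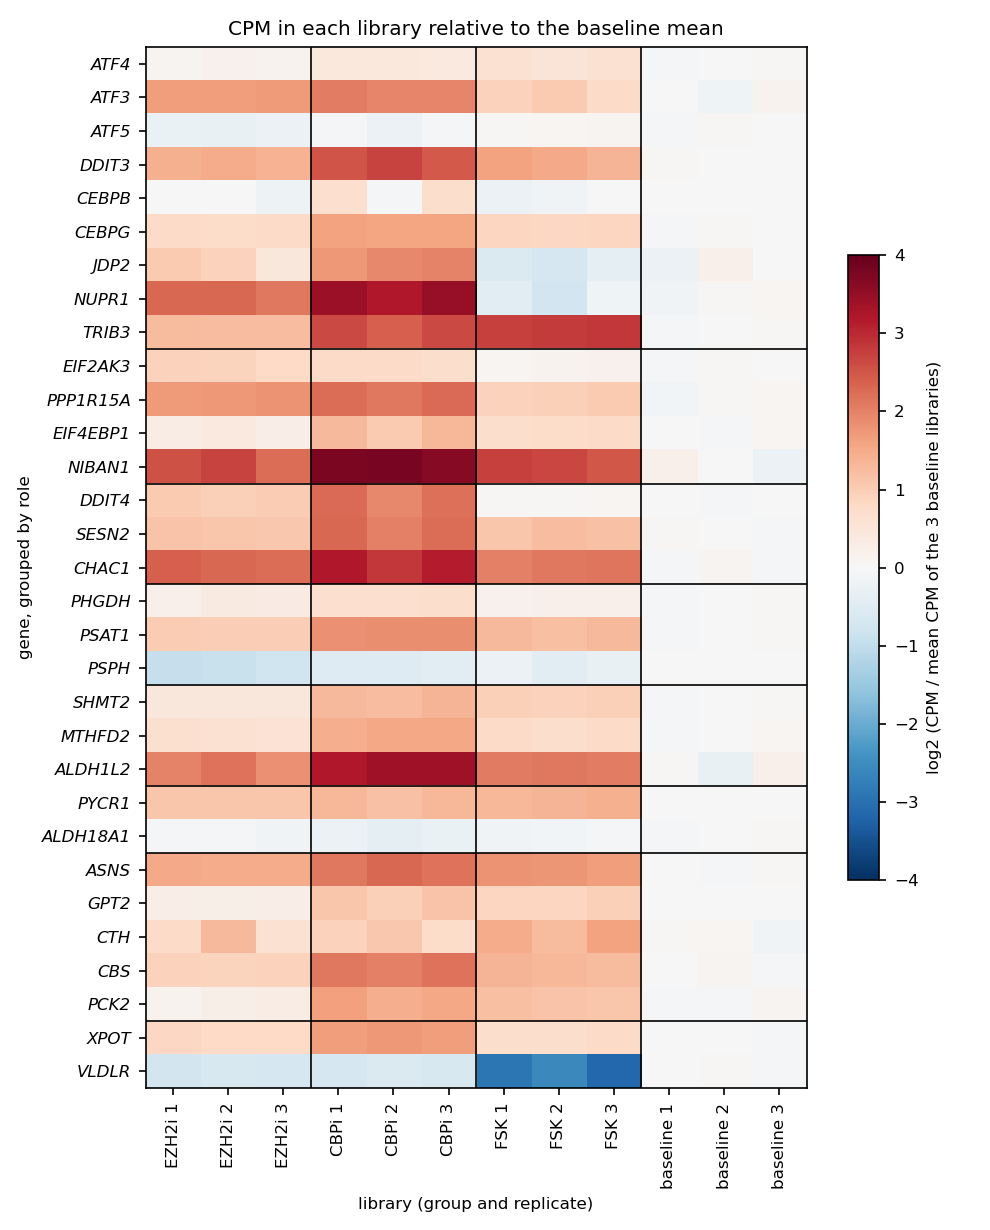
Level of each of the 31 genes (rows, grouped by role, in the order of the text) in each of the 12 libraries (columns), as log2 of CPM over the mean of the 3 baseline libraries. NIBAN1, NUPR1, CHAC1 and ALDH1L2 are darkest in CBPi, TRIB3 is high in both CBPi and FSK, VLDLR is lowest in FSK, and PSPH is pale blue in all 9 treated libraries.

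Of the 9 transcription factors and their regulators, 7 rose and 1 fell in EZH2i, 8 rose and 1 fell in CBPi, and 5 rose and 2 fell in FSK. Among all genes tested, 29.5% rose and 28.3% fell in EZH2i, 29.8% and 29.0% in CBPi, and 25.5% and 25.1% in FSK. The 2 falls in FSK were near that share. ATF4 had 210.0, 219.5 and 216 CPM in EZH2i, 260.2, 263 and 257 in CBPi, 298, 278 and 297 in FSK and 190.1, 197 and 201 in baseline. The 4 groups did not overlap, with FSK on top and baseline at the bottom. Its log2 fold change was 0.13 ± 0.04 in EZH2i (edgeR adjusted p = 0.00744), 0.41 ± 0.04 in CBPi and 0.57 ± 0.04 in FSK (edgeR adjusted p = 2.21e-10), all under 1.5-fold. The order of the groups for ATF4 mRNA was not that of most members, which had their highest mean in CBPi.

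DDIT3, which encodes the stress factor CHOP, moved far more than ATF4. It had 43.0, 44.5 and 41.9 CPM in EZH2i, 91.6, 104 and 88.4 in CBPi, 48.9, 45.7 and 41.5 in FSK and 16.6, 15.8 and 15.7 in baseline. CBPi lay well above the other treated groups, EZH2i and FSK overlapped, and baseline was lowest, with log2 fold changes of 1.43 ± 0.07 in EZH2i, 2.56 ± 0.07 in CBPi and 1.503 ± 0.07 in FSK (edgeR adjusted p at most 2.07e-12). ATF3, a repressor and activator of the ATF family, had 14.2, 14.1 and 14.5 CPM in EZH2i, 18.4, 17.2 and 17.3 in CBPi, 8.55, 9.27 and 7.58 in FSK and 4.51, 3.97 and 4.94 in baseline. CEBPG, a dimer partner of ATF4, had 123, 121 and 122 CPM in EZH2i, 221, 214 and 217 in CBPi, 131, 127 and 132 in FSK and 70.3, 74.3 and 71.7 in baseline. For both genes every treated library was above every baseline library and the CBPi libraries were highest. DDIT3 overlaps the highly counted MARS gene on the opposite strand by 982 bases and AC022506.1 on its own strand by 2769 bases, and the strand setting of the counts is not given in the sources used here.

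NUPR1 and JDP2 were high under both inhibitors and low under forskolin. NUPR1, a small stress-induced chromatin protein, had 22.5, 22.5 and 19.9 CPM in EZH2i, 49.1, 42.7 and 51.5 in CBPi, 3.41, 2.73 and 4.12 in FSK and 4.20, 4.82 and 4.85 in baseline. CBPi stood highest, EZH2i next, and the FSK libraries lay just below the baseline libraries without overlap. Its log2 fold change was 2.22 ± 0.11 in EZH2i (edgeR adjusted p = 1.07e-12), 3.37 ± 0.10 in CBPi (edgeR adjusted p = 7.56e-16), a 10.3-fold rise, and -0.44 ± 0.15 in FSK (edgeR adjusted p = 0.0188). JDP2, a repressor that dimerises with AP-1 and ATF proteins, had 3.49, 3.24 and 2.32 CPM in EZH2i, 5.72, 6.38 and 6.75 in CBPi, 1.15, 1.08 and 1.30 in FSK and 1.46, 1.95 and 1.69 in baseline. The groups kept the same order as for NUPR1, with log2 fold changes of 0.82 ± 0.17 in EZH2i, 1.88 ± 0.16 in CBPi and -0.55 ± 0.22 in FSK (edgeR adjusted p = 0.0431). Both falls under forskolin were close to the threshold. The NUPR1 call was lost without baseline replicate 2, baseline replicate 3 or FSK replicate 2, with edgeR adjusted p of 0.0664, 0.0544 and 0.128. The JDP2 call was lost without baseline replicate 2 or 3 or any FSK replicate, with edgeR adjusted p of 0.0501 to 0.186. It was also lost with other tests, at a DESeq2 adjusted p of 0.0821 and a limma voom adjusted p of 0.0691.

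TRIB3, a pseudokinase that binds ATF4 and dampens its activity, was the member with the largest rise in FSK. It had 169.7, 168 and 168 CPM in EZH2i, 445, 377 and 443 in CBPi, 477, 494 and 508 in FSK and 69.6, 71.1 and 72.7 in baseline. FSK was highest, CBPi close below, EZH2i well below both, and no groups overlapped. The log2 fold change was 2.79 ± 0.06 in FSK (edgeR adjusted p = 6.15e-19), a 6.93-fold rise, 2.57 ± 0.06 in CBPi and 1.24 ± 0.05 in EZH2i.

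ATF5 fell in both inhibitor groups, and CEBPB passed against baseline in CBPi alone. ATF5, like ATF4 controlled at translation, had 92.2, 91.2 and 95.1 CPM in EZH2i, 106, 94.9 and 106 in CBPi, 117, 119 and 122 in FSK and 109, 115 and 112 in baseline. EZH2i was lowest and overlapped CBPi at 1 library, and FSK lay just above baseline without overlap. ATF5 fell in EZH2i by a log2 of 0.27 ± 0.05 (edgeR adjusted p = 4.72e-05) and in CBPi by 0.13 ± 0.05 (edgeR adjusted p = 0.0203), and the difference in FSK was 0.09 ± 0.05 (edgeR adjusted p = 0.123). The CBPi call was lost without CBPi replicate 2 or baseline replicate 2, with edgeR adjusted p of 0.0734 and 0.0841. Opposite-strand genes cover the whole of ATF5. CEBPB, which encodes a C/EBP factor of acute stress and metabolism, had 135, 135 and 119 CPM in EZH2i, 216, 131 and 225 in CBPi, 117, 125 and 139 in FSK and 139, 134 and 138 in baseline. CBPi replicates 1 and 3 were above every other library, while CBPi replicate 2 lay below the lowest baseline library. The log2 fold change in CBPi was 0.47 ± 0.18 (edgeR adjusted p = 0.0473), and 0.68 without CBPi replicate 2 (edgeR adjusted p = 9.15e-10). The call was lost without any 1 of 10 other libraries, at edgeR adjusted p of up to 0.161: CBPi replicates 1 and 3, EZH2i replicates 1 and 2, and each FSK and baseline replicate. In EZH2i and FSK the CEBPB differences were -0.08 ± 0.18 and -0.12 ± 0.18, and neither passed.

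**Figure D2:**
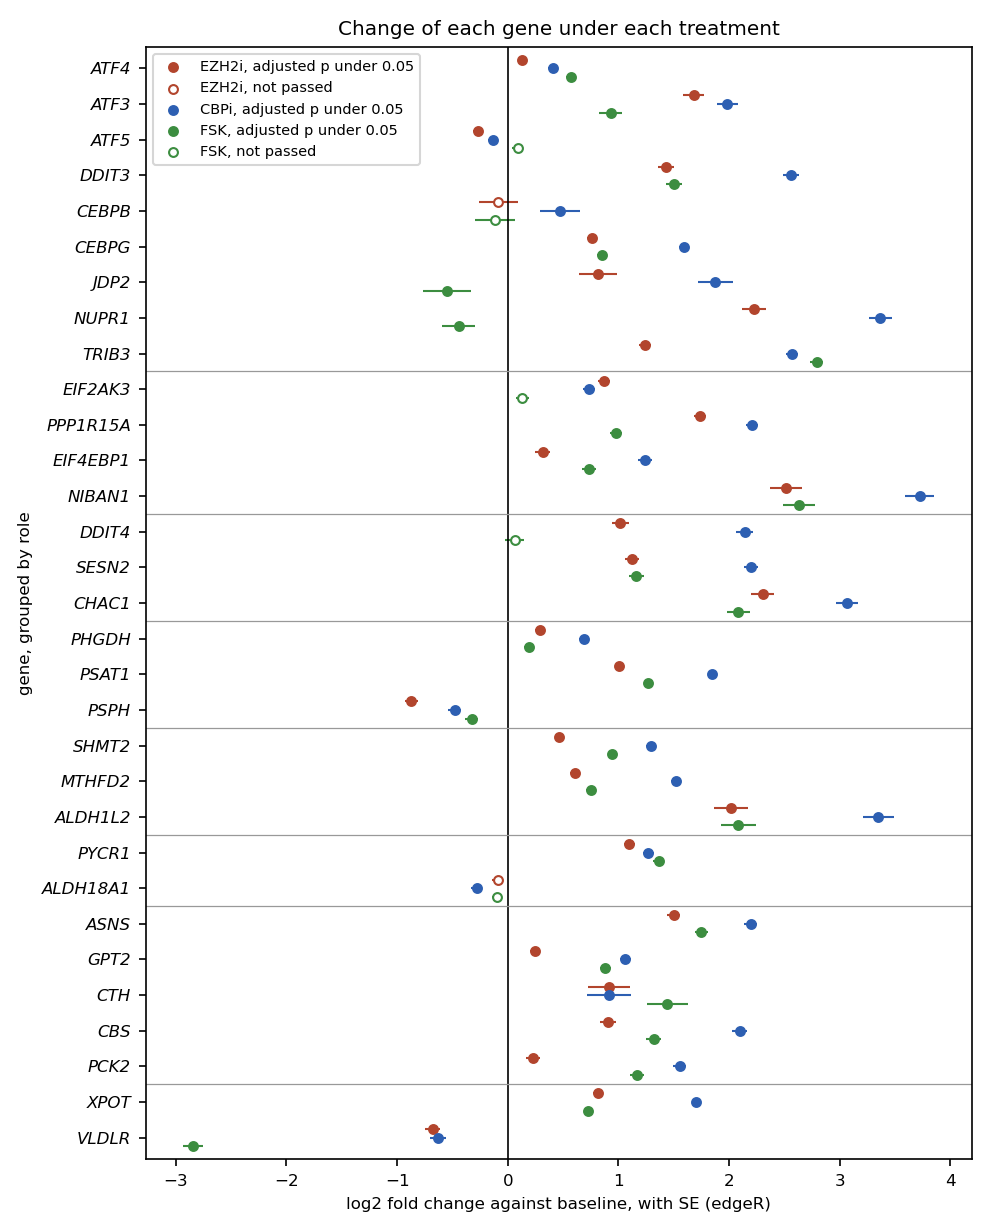
Log2 fold change of each gene against baseline (x axis) for EZH2i (red), CBPi (blue) and FSK (green), with the SE as a bar, where filled points had an edgeR adjusted p under 0.05 and open points did not. The CBPi points lie farthest right for most genes, up to 3.72 for NIBAN1, whereas VLDLR in FSK lies farthest left at -2.84.

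The 4 genes of input and feedback on translation came next. EIF2AK3, which encodes the eIF2 kinase PERK, had 49.6, 48.9 and 45.9 CPM in EZH2i, 44.8, 44.8 and 42.5 in CBPi, 28.0, 29.1 and 29.7 in FSK and 25.3, 27.1 and 26.8 in baseline. Both inhibitor groups were above FSK and baseline without overlap, and EZH2i was highest. Its log2 fold change was 0.87 ± 0.05 in EZH2i (edgeR adjusted p = 3.78e-11), 0.74 ± 0.05 in CBPi and 0.13 ± 0.06 in FSK, which did not pass (edgeR adjusted p = 0.0602). PPP1R15A encodes GADD34, which recruits the phosphatase that removes the phosphate from eIF2. It averaged 199.5 CPM in EZH2i, 275 in CBPi, 118 in FSK and 59.7 in baseline, with log2 fold changes of 1.74 ± 0.05, 2.21 ± 0.05 and 0.98 ± 0.05 in the treated groups in that order. EIF4EBP1 encodes 4E-BP1, which holds back cap-dependent translation. Its log2 fold change was 0.32 ± 0.06 in EZH2i, 1.24 ± 0.06 in CBPi and 0.74 ± 0.06 in FSK, and every treated library was above every baseline library.

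NIBAN1 had the largest rise of all members in both inhibitor groups. It encodes a stress-induced protein linked to eIF2 phosphorylation, and had 11.7, 13.0 and 9.44 CPM in EZH2i, 26.8, 27.6 and 24.9 in CBPi, 13.3, 12.8 and 11.0 in FSK and 2.28, 1.99 and 1.69 in baseline. Every treated library exceeded the highest baseline library several times over, EZH2i and FSK overlapped, and CBPi lay well above both. The log2 fold change was 2.51 ± 0.14 in EZH2i (edgeR adjusted p = 1.09e-11), 3.72 ± 0.13 in CBPi (edgeR adjusted p = 5.89e-15), a 13.2-fold rise, and 2.63 ± 0.15 in FSK (edgeR adjusted p = 4.76e-12).

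DDIT4, SESN2 and CHAC1 act on growth signalling and glutathione. DDIT4 encodes REDD1, an inhibitor of the growth kinase complex mTORC1, and had 36.2, 34.0 and 35.5 CPM in EZH2i, 83.5, 65.9 and 80.8 in CBPi, 18.2, 17.8 and 18.5 in FSK and 17.6, 16.9 and 17.8 in baseline. CBPi was highest and EZH2i next, while FSK lay beside baseline. Its log2 fold change was 1.02 ± 0.08 in EZH2i, 2.14 ± 0.08 in CBPi (edgeR adjusted p = 4.83e-15) and 0.06 ± 0.08 in FSK (edgeR adjusted p = 0.576). SESN2, a leucine sensor that also restrains mTORC1, rose in all 3 treated groups, by a log2 of 1.12 ± 0.06 in EZH2i, 2.19 ± 0.06 in CBPi and 1.16 ± 0.06 in FSK. CHAC1 encodes an enzyme that degrades glutathione, and had 40.8, 38.7 and 36.7 CPM in EZH2i, 72.8, 55.3 and 69.4 in CBPi, 31.4, 34.0 and 34.6 in FSK and 7.52, 8.35 and 7.57 in baseline. The groups did not overlap, and even the FSK libraries, lowest of the treated ones, were far above baseline. The CHAC1 log2 fold change was 2.30 ± 0.10 in EZH2i (edgeR adjusted p = 4.84e-13), 3.07 ± 0.10 in CBPi, which is 8.38-fold, and 2.09 ± 0.10 in FSK (edgeR adjusted p = 2.3e-12).

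**Figure D3:**
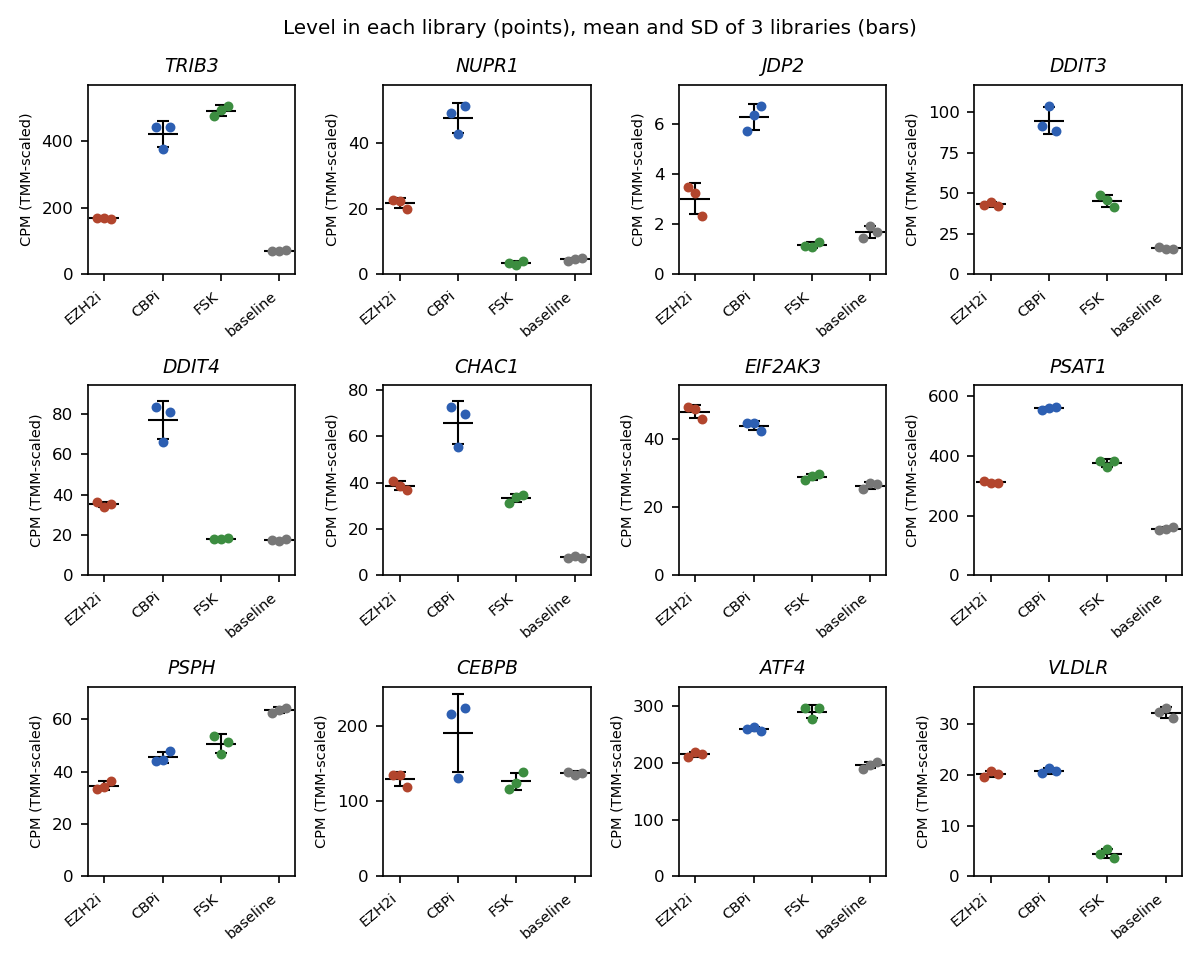
CPM (TMM-scaled) of 12 members in each library (points) by group, with the mean and SD of 3 libraries (bars) and a linear axis that starts at 0 in each panel. NUPR1, JDP2 and DDIT4 are high in EZH2i and CBPi alone, TRIB3 is highest in FSK, CBPi replicate 2 is the low point of CEBPB, and PSPH and VLDLR are highest in baseline.

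The serine synthesis enzymes split. PHGDH, the first enzyme, had 325, 361 and 351 CPM in EZH2i, 453, 451 and 458 in CBPi, 318, 323 and 328 in FSK and 266, 287 and 294 in baseline. It was above baseline in every treated library, by a log2 of 0.29 ± 0.04 in EZH2i, 0.69 ± 0.04 in CBPi (edgeR adjusted p = 5.31e-11) and 0.20 ± 0.04 in FSK (edgeR adjusted p = 0.00091). PSAT1, the aminotransferase of the second step, rose more, by 1.00 ± 0.04 in EZH2i, 1.85 ± 0.04 in CBPi and 1.27 ± 0.04 in FSK. PSPH, the phosphatase of the last step, went the other way and had 33.3, 34.4 and 36.6 CPM in EZH2i, 44.3, 44.3 and 47.8 in CBPi, 53.9, 46.9 and 51.4 in FSK and 62.3, 63.7 and 64.5 in baseline. Every treated library was below every baseline library, and EZH2i was lowest. PSPH fell by a log2 of 0.87 ± 0.06 in EZH2i (edgeR adjusted p = 8.53e-11), 0.48 ± 0.06 in CBPi (edgeR adjusted p = 4.43e-07) and 0.33 ± 0.06 in FSK (edgeR adjusted p = 6.61e-05).

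Levels were also divided by the deposited gene length, which need not be that of the expressed transcript, so different genes compare only roughly. On that scale PSAT1 stood at 141 ± 1.90 CPM per kb in EZH2i, 253 ± 2.35 in CBPi, 170.2 ± 5.47 in FSK and 70.5 ± 2.46 in baseline (SD, n = 3 each). PSPH stood at 12.6 ± 0.615, 16.5 ± 0.730, 18.4 ± 1.29 and 23.0 ± 0.414 CPM per kb in the same groups, so the gap between PSAT1 and PSPH was wider in every treated group than in baseline. A related copy, PSPHP1, took 14.1% of the counts of both. With its counts added, PSPH had 39.7 to 42.3 CPM in EZH2i, 52.4 to 56.7 in CBPi, 53.6 to 61.3 in FSK and 71.8 to 73.9 in baseline, and the treated groups still lay below baseline without overlap. PSPH is at chr7:56011051-56051604 (GRCh38, minus strand).

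All 3 mitochondrial one-carbon enzymes rose in each treatment, where 29.5% of all genes rose in EZH2i, 29.8% in CBPi and 25.5% in FSK. SHMT2, which splits serine into glycine and a one-carbon unit, had 419.7, 421 and 417 CPM in EZH2i, 745, 719.6 and 773 in CBPi, 594, 576 and 586 in FSK and 290.5, 309 and 313 in baseline. The groups did not overlap, in the order CBPi, FSK, EZH2i and baseline. Its log2 fold change was 0.46 ± 0.04 in EZH2i, 1.29 ± 0.04 in CBPi (edgeR adjusted p = 6.26e-16) and 0.94 ± 0.04 in FSK. MTHFD2, which oxidises that unit, showed the same order, with log2 fold changes of 0.61 ± 0.04 in EZH2i, 1.52 ± 0.04 in CBPi and 0.75 ± 0.05 in FSK. ALDH1L2, which releases it as carbon dioxide with NADPH, was scarce and rose most, with 4.85, 5.53 and 4.40 CPM in EZH2i, 11.3, 12.9 and 12.8 in CBPi, 5.14, 5.26 and 5.07 in FSK and 1.28, 0.994 and 1.41 in baseline. Every treated library was above every baseline library and CBPi stood above the other treated groups. The ALDH1L2 log2 fold change was 2.02 ± 0.15 in EZH2i (edgeR adjusted p = 7.83e-10), 3.35 ± 0.14 in CBPi, which is 10.2-fold, and 2.09 ± 0.16 in FSK (edgeR adjusted p = 6.35e-10). ALDH1L2 overlaps C12orf45 on the opposite strand over most of its length.

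Proline synthesis split as well. PYCR1, the mitochondrial reductase of the final step, had 108, 109.8 and 108 CPM in EZH2i, 126, 113 and 128 in CBPi, 126, 129 and 137 in FSK and 51.2, 50.7 and 50.3 in baseline. Baseline was lowest without overlap and CBPi and FSK overlapped, with log2 fold changes of 1.10 ± 0.05 in EZH2i, 1.27 ± 0.05 in CBPi and 1.37 ± 0.05 in FSK (edgeR adjusted p = 7.14e-15). ALDH18A1, the synthase of the first steps, had 70.2, 69.3 and 66.7 CPM in EZH2i, 62.6, 57.2 and 61.2 in CBPi, 66.8, 68.0 and 70.6 in FSK and 70.7, 74.1 and 74.9 in baseline. The treated groups lay below baseline without overlap, EZH2i and FSK narrowly and CBPi by more. ALDH18A1 fell in CBPi by 0.28 ± 0.05 (edgeR adjusted p = 4.89e-05), and the differences were -0.09 ± 0.05 in EZH2i and -0.10 ± 0.05 in FSK, with edgeR adjusted p of 0.103 and 0.0968. The FSK difference passed without CBPi replicate 2, with an edgeR adjusted p of 0.0422.

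The enzymes of asparagine, alanine, sulfur amino acids and phosphoenolpyruvate rose in each treatment, 5 of 5. The shares of all genes that rose were 29.5% in EZH2i, 29.8% in CBPi and 25.5% in FSK. ASNS, asparagine synthetase, had 61.0, 59.8 and 60.4 CPM in EZH2i, 91.8, 105 and 96.5 in CBPi, 74.1, 72.7 and 68.5 in FSK and 21.0, 20.9 and 22.2 in baseline. The groups did not overlap, in the order CBPi, FSK, EZH2i and baseline, with log2 fold changes of 1.499 ± 0.06 in EZH2i (edgeR adjusted p = 2.58e-14), 2.20 ± 0.06 in CBPi and 1.75 ± 0.06 in FSK. About the same number of counts went to AC079781.5, a transcript that spans ASNS on its own strand (chr7:97852118-97872542, GRCh38): it took 49.8% to 52.3% of the 2 together. With both summed, the ASNS log2 fold changes were 1.43, 2.13 and 1.69 in EZH2i, CBPi and FSK. CBS, the first enzyme of transsulfuration, rose by 0.91 ± 0.07 in EZH2i, 2.10 ± 0.07 in CBPi and 1.32 ± 0.07 in FSK. Its near-identical copy CBSL took 46.3% to 47.5% of their joint counts, and the values with both summed were 0.90, 2.09 and 1.31.

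CTH, the second transsulfuration enzyme, was scarce, with 2.65, 3.81 and 2.38 CPM in EZH2i, 2.96, 3.31 and 2.61 in CBPi, 4.31, 3.77 and 4.71 in FSK and 1.60, 1.66 and 1.41 in baseline. Every treated library was above baseline, and FSK had the highest mean but overlapped EZH2i, at a log2 fold change of 1.44 ± 0.19 against 0.91 ± 0.19 in EZH2i and 0.91 ± 0.20 in CBPi. PCK2, the mitochondrial PEP carboxykinase, separated the inhibitors and had 36.3, 38.1 and 40.2 CPM in EZH2i, 101, 89.8 and 96.2 in CBPi, 75.7, 72.5 and 70.9 in FSK and 30.9, 31.5 and 35.4 in baseline. EZH2i was only just above baseline, while CBPi and FSK stood far above both. The PCK2 log2 fold change was 0.23 ± 0.06 in EZH2i (edgeR adjusted p = 0.00354), 1.55 ± 0.06 in CBPi and 1.17 ± 0.06 in FSK. GPT2, the mitochondrial alanine aminotransferase, had the same order, with 0.25 ± 0.05, 1.06 ± 0.05 and 0.88 ± 0.05 in the treated groups in that order.

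XPOT, which exports tRNA from the nucleus, had 371, 367 and 368 CPM in EZH2i, 674, 704 and 672 in CBPi, 344, 338 and 358 in FSK and 212, 214 and 204 in baseline. All treated libraries exceeded baseline and CBPi was highest, with log2 fold changes of 0.81 ± 0.04 in EZH2i, 1.70 ± 0.04 in CBPi and 0.72 ± 0.04 in FSK. VLDLR, a lipoprotein receptor reported as a stress response target in other tissues, had 19.4, 20.8 and 20.2 CPM in EZH2i, 20.2, 21.4 and 20.7 in CBPi, 4.36, 5.38 and 3.68 in FSK and 32.3, 33.2 and 31.1 in baseline. Baseline was highest, EZH2i and CBPi overlapped each other below it, and FSK was lowest by far. VLDLR fell by 0.68 ± 0.07 in EZH2i (edgeR adjusted p = 8.47e-08), by 0.63 ± 0.07 in CBPi (edgeR adjusted p = 2.85e-07) and by 2.84 ± 0.09 in FSK (edgeR adjusted p = 8.86e-16). The FSK value corresponds to a level 7.18-fold lower in FSK.

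The inhibitors were next compared directly. CBPi was higher than EZH2i in 27 members and lower in 2, where 22.2% of all genes were higher and 21.7% lower, and the median log2 difference was 0.83 for the members and 0.01 for all genes. Tested against 1.5-fold, 17 members were higher and 0 lower, against 1.33% and 3.55% of all genes. The largest differences were ALDH1L2 with 1.33 ± 0.10, PCK2 with 1.32 ± 0.06, TRIB3 with 1.32 ± 0.05 and NIBAN1 with 1.21 ± 0.10, at edgeR adjusted p of 2.27e-09, 8.52e-13, 1.44e-13 and 3.85e-09. For each of the 4 genes the lowest CBPi library was above the highest EZH2i library. They were picked for their large differences, so this separation is no further evidence. ALDH18A1 was lower in CBPi, at -0.19 ± 0.05 (edgeR adjusted p = 0.00323). EIF2AK3 was lower too, at -0.13 ± 0.05 (edgeR adjusted p = 0.044), a call lost without any 1 of 8 libraries (EZH2i replicates 1 and 2, CBPi replicates 1 and 3, FSK replicates 1 and 3, baseline replicates 2 and 3), at edgeR adjusted p of 0.0503 to 0.172. CTH and VLDLR did not pass, with differences of 0.00 ± 0.17 and 0.05 ± 0.07.

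Against forskolin, CBPi was higher in 24 members and lower in 6, against 29.3% and 29.5% of all genes, with a median log2 difference of 0.60 for the members. Beyond 1.5-fold, 15 members were higher and 0 lower, against 8.33% and 6.92%. NUPR1 differed by 3.81 ± 0.11, JDP2 by 2.42 ± 0.17, VLDLR by 2.21 ± 0.09 and DDIT4 by 2.08 ± 0.07. TRIB3 and ATF4 were lower in CBPi than in FSK, at -0.23 ± 0.05 and -0.16 ± 0.04 (edgeR adjusted p = 0.000653 and 0.00154). EZH2i was higher than FSK in 9 members and lower in 14, and 8 did not pass, where 30.3% and 31.3% of all genes were higher and lower. With each library left out in turn, members higher in EZH2i numbered 7 to 10. The median difference was -0.09, and beyond 1.5-fold 7 were higher and 2 lower, against 10.7% and 7.81% of all genes. NUPR1 at 2.67 ± 0.12, VLDLR at 2.16 ± 0.09, JDP2 at 1.36 ± 0.19 and DDIT4 at 0.96 ± 0.08 were higher in EZH2i. TRIB3 at -1.55 ± 0.05, PCK2 at -0.93 ± 0.06 and GPT2 at -0.64 ± 0.05 were lower. DDIT3, CEBPG, SESN2 and NIBAN1 did not pass, with differences of -0.07 ± 0.07, -0.09 ± 0.04, -0.04 ± 0.06 and -0.12 ± 0.10. Time and dose differ between forskolin and the inhibitors, and cannot be told apart from the agent.

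**Figure D4:**
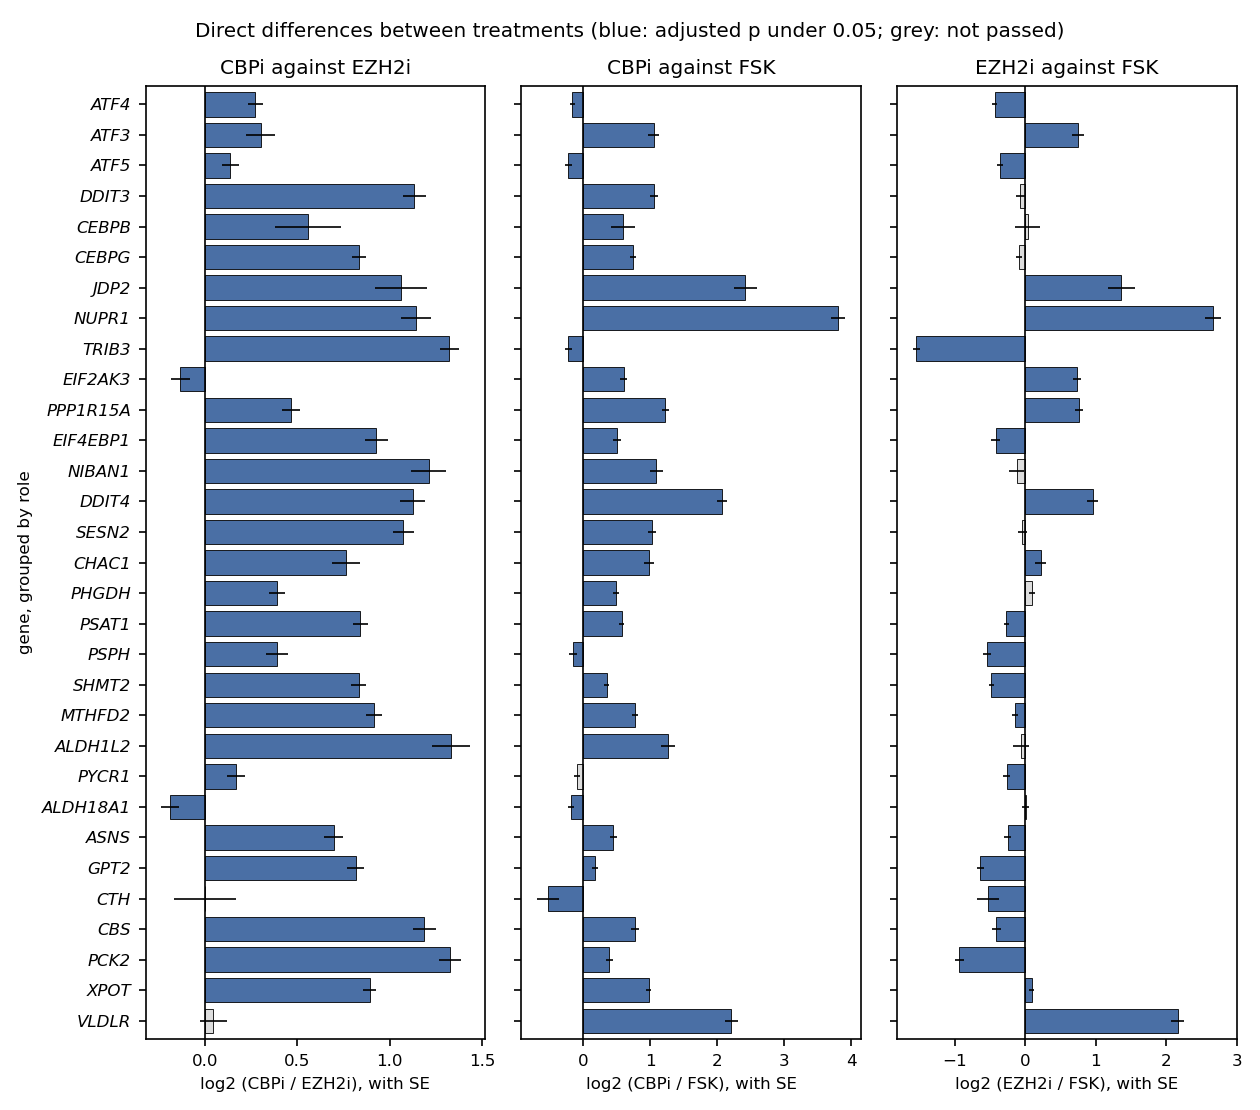
Log2 difference of each gene between treatments (bars, with the SE) for CBPi against EZH2i, CBPi against FSK and EZH2i against FSK, where blue bars had an edgeR adjusted p under 0.05 and each panel has its own axis. Nearly all bars of the left panel point right, while the right panel holds 9 blue bars to the right and 14 to the left.

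By mean level, CBPi was the highest group for 22 members, each above the next group by test. The share of all genes with CBPi as the highest group was not counted. Of all genes, 29.8% were higher in CBPi than in baseline, 22.2% than in EZH2i and 29.3% than in FSK. For CEBPB, the call against baseline was lost without any 1 of 10 libraries, and in limma voom (adjusted p = 0.0773). FSK was highest for 5: ATF4, TRIB3 and CTH stood above the next group, and ATF5 and PYCR1 did not pass. The CTH difference from CBPi was lost without CBPi replicate 3, with an edgeR adjusted p of 0.0535. EIF2AK3 was highest in EZH2i. PSPH and VLDLR were highest in baseline, and ALDH18A1 was too, without passing against EZH2i. Per kilobase, the most abundant members in baseline were ATF4 at 78.0 ± 2.24 CPM per kb, PSAT1 at 70.5 ± 2.46 and CEBPB at 70.2 ± 1.30, of which PSAT1 and CEBPB did not differ beyond their spread. In CBPi the order was led by PSAT1 at 253 ± 2.35, SHMT2 at 162 ± 5.80 and EIF4EBP1 at 159 ± 16.4 CPM per kb. SHMT2 and EIF4EBP1 did not differ there beyond their spread. The scarcest were ALDH1L2, NIBAN1 and JDP2, at 0.129 ± 0.022, 0.238 ± 0.035 and 0.272 ± 0.039 CPM per kb in baseline, the last pair within their spread. These orders depend on the deposited lengths, such as 880 bases for EIF4EBP1 and 9217 for PHGDH.

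Outside the members, 29 further targets of ATF4 were counted, a list of secreted factors, amino acid transporters, cytosolic aminoacyl-tRNA synthetases and genes of cell death and other stress chosen with earlier results known. Of these 27 rose and 2 fell in EZH2i, 28 rose and 1 fell in CBPi, and 25 rose and 1 fell in FSK, with median log2 fold changes of 0.71, 1.19 and 0.80. The shares of all genes were 29.5% higher and 28.3% lower in EZH2i, 29.8% and 29.0% in CBPi, and 25.5% and 25.1% in FSK. ADM2, a secreted peptide of the calcitonin family, had 8.65 CPM in EZH2i, 21.7 in CBPi, 10.6 in FSK and 1.04 in baseline. GDF15, a secreted stress cytokine, had 18.2 CPM in EZH2i, 37.5 in CBPi, 38.7 in FSK and 2.47 in baseline. EPRS1, the synthetase for glutamate and proline, fell, with 592 CPM in EZH2i and 1432 CPM in baseline and a log2 fold change of -1.27 ± 0.04 (edgeR adjusted p = 1.06e-15). KLHL24 was the 1 that fell in FSK, at -0.44 ± 0.07.

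A second list held 18 genes upstream of ATF4: other eIF2 kinases, subunits of eIF2 and eIF2B, and their regulators. Of these 4 rose and 10 fell in EZH2i, 5 rose and 4 fell in CBPi, and 10 rose and 3 fell in FSK. Beside the same shares of all genes, both CBPi counts, the rises in EZH2i and the falls in FSK were near the background. The median log2 fold changes were -0.14 in EZH2i, 0.03 in CBPi and 0.19 in FSK. DELE1, which relays mitochondrial stress to the kinase HRI, had 26.6 CPM in EZH2i and 48.0 CPM in baseline, a log2 fold change of -0.85 ± 0.05 (edgeR adjusted p = 7.35e-11). In CBPi DELE1 fell by 0.39 ± 0.05, and EIF2S2, the beta subunit of eIF2, rose by 0.45 ± 0.05. EIF2AK2, the kinase PKR, fell in FSK by 0.49 ± 0.05. These are mRNA levels, and phosphorylation of eIF2 was not measured.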

How the data were processed

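Polyadenylated RNA of NCI-H295R cells was measured in 12 libraries, 3 per group. Per the submitters' processing notes, STAR and featureCounts were used with hg38. Versions, annotation release, strand setting and handling of reads with several matches were not given in the sources used here. Expected counts per Ensembl gene were deposited by the authors, made from featureCounts output per those notes and not normalized; 65.6% of non-zero values are whole within 1e-06. The authors' gene length, another column, gave CPM per kb. Counts were rounded. In R 4.3.3, edgeR 4.0.16 and limma 3.58.1 were used: filterByExpr kept 20360 genes, TMM scaling and 1 robust quasi-likelihood fit to all 12 libraries followed, and 6 pairs of groups were tested with Benjamini-Hochberg adjustment at 0.05. A test against 1.5-fold used glmTreat. The common dispersion was 0.00248. Gene positions are from GENCODE release 29 (GRCh38) and promoters from RefSeq. Replicate pairs were compared by a chi-square over genes with at least 200 counts in a pair. Replicate numbers follow the order of deposit and pair nothing.

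The members and lists were chosen with earlier results of these data known. Values in every library are given for the 4 largest rises and every fall against baseline, the largest differences between CBPi and EZH2i, the first gene of each role and some further members; DDIT3, ATF3, CEBPG, CEBPB and CTH were added to that rule after their values were seen. Genes outside the members are the 2 largest changes in each direction of a list, in part. The alternatives included DESeq2 1.42.0, voom in limma, other scalings and filters, fits of 2 groups, each library left out, and ASNS and CBS summed with the gene that shares their reads, chosen after seeing the data. Simulated data used the baseline means in every group, with 50 genes changed at each fold in EZH2i. Among 19411 genes, 37, 49, 50 and 50 of 50 were recovered at 1.25, 1.5, 2 and 4-fold, with 7 false calls. Changed genes were drawn above 2 CPM in baseline, so levels as low as those of ALDH1L2, CTH, JDP2 and NIBAN1 were not covered. In the data 29.5% of genes rose and 28.3% fell in EZH2i, and a change that broad was not simulated.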

Additional observations from a re-analysis of the deposited data

How the results depend on the processing

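Under the alternatives, 3906 values of the members were set against their main value: 92 had another call, in 19 of 186 pairs of a member and a comparison, and 0 values called in either fit changed sign. A further 21 values, in 8 pairs, took the other sign without passing in either fit, among them DDIT3, CEBPG, SESN2 and ALDH1L2 in EZH2i against FSK and DDIT4 in FSK against baseline when scaled by library size alone, and CTH in CBPi against EZH2i. The test against 1.5-fold left 17 members higher and 1 lower in EZH2i against baseline, 0 lower in CBPi, 1 lower in FSK, 17 higher and 0 lower in CBPi against EZH2i, 15 higher and 0 lower in CBPi against FSK, and 2 lower in EZH2i against FSK. It lost 64 of 168 calls, as a stricter question. For CBPi against EZH2i, members lower numbered 1 under DESeq2, under no filter and with only the 2 groups fitted, EIF2AK3 being lost. The cause was not tested. With each library left out in turn, members lower ranged over 2 to 5 for FSK against baseline and 1 to 2 for CBPi against EZH2i. Members higher ranged over 26 to 26 in EZH2i, 26 to 27 in CBPi and 22 to 22 in FSK against baseline. Between treatments they ranged over 25 to 27 for CBPi against EZH2i, 23 to 24 for CBPi against FSK and 7 to 10 for EZH2i against FSK. In EZH2i against FSK the XPOT call was lost without any 1 of 9 libraries, and the CHAC1 call without any 1 of 4. Where a group was left with 2 libraries, the spread was pooled over all groups. Without CBPi replicate 2, CBPi against baseline held 27 higher and 3 lower, and no member's fold change moved by more than 1.16 times. No paired analysis was possible because the labels give no replicate numbers, and those used here follow the order of deposit. The widest SE of log2 fold changes against baseline were those of JDP2, CTH and CEBPB, at up to 0.22, 0.20 and 0.18. JDP2 and CTH had 1.41 to 1.95 CPM in baseline, and CEBPB 134 to 139 CPM.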

Other observations

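Enzymes of the same routes outside the members were counted too, beside shares of all genes of 29.5% higher and 28.3% lower in EZH2i, 29.8% and 29.0% in CBPi, and 25.5% and 25.1% in FSK. Of 19 further genes of one-carbon and glycine metabolism, 5 rose and 9 fell in EZH2i, 7 rose and 7 fell in CBPi, and 10 rose and 5 fell in FSK, with median log2 fold changes of -0.08, -0.03 and 0.22. The 5 that rose in EZH2i, the 5 that fell in FSK and both counts in CBPi were within 2 genes of those shares. MTHFD1L, the mitochondrial enzyme that makes formate, had 58.7 CPM in CBPi and 27.7 CPM in baseline, a log2 fold change of 1.08 ± 0.05 (edgeR adjusted p = 1.45e-12). TYMS, thymidylate synthase, fell by a log2 of 0.75 ± 0.04 in CBPi and 0.61 ± 0.04 in FSK. In EZH2i it was lower too, with a mean of 140 CPM against 209 CPM in baseline. DLD, a shared subunit of the glycine cleavage system, had 70.2 CPM in EZH2i and 142 CPM in baseline, a log2 fold change of -1.01 ± 0.05.

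Of 18 further genes of proline, alanine, aspartate, methionine and arginine routes, 16 were tested: 1 rose and 12 fell in EZH2i, 5 rose and 9 fell in CBPi, and 6 rose and 4 fell in FSK, with median log2 fold changes of -0.36, -0.26 and 0.10. The 5 that rose in CBPi and the 4 that fell in FSK were at about the shares of all genes. ASS1, argininosuccinate synthase, had 18.3 CPM in EZH2i and 114 CPM in baseline, a log2 fold change of -2.64 ± 0.06 (edgeR adjusted p = 8.63e-18), and in CBPi it fell by 1.19 ± 0.06. PYCR3, the cytosolic relative of PYCR1, fell by 0.99 ± 0.08 in EZH2i and 1.00 ± 0.09 in CBPi, the groups in which PYCR1 rose by 1.10 ± 0.05 and 1.27 ± 0.05.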
